A study of Homo sapiens with 15 samples.

Results

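The genes described are the effectors of the Hippo pathway and a set of their direct transcriptional targets: YAP1, WWTR1, TEAD1, TEAD2, TEAD3, TEAD4, CTGF, CYR61, ANKRD1 and AMOTL2. They were chosen by name and by no limit on their values, with earlier results of these data known, and all 10 were present among the 33158 gene symbols of the deposited expression table, in which CTGF and CYR61 carry the older symbols of CCN2 and CCN1. WWTR1 encodes the protein called TAZ. The symbol TAZ in the table belongs to another gene, tafazzin, and was not used.

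The Hippo pathway is a kinase cascade in which the kinases STK3 and STK4 activate LATS1 and LATS2, which phosphorylate the coactivators YAP and TAZ and keep them out of the nucleus. When the cascade is inactive, YAP and TAZ enter the nucleus, bind the DNA-binding TEAD factors and raise transcription of genes for growth, matrix contact and cell shape. Much of this regulation acts on the phosphorylation and location of the proteins, which RNA levels do not measure, and YAP and TAZ are known for roles in self-renewal and invasion of breast cancer cells.

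RNA was sequenced from 3 established triple negative breast cancer cell lines in 15 libraries, 3 in each of 5 groups, to compare cancer stem cells (CSCs), defined by the surface markers CD44+CD24-/low, with the remaining cells. The groups were CSCs sorted from SUM149PT, non-CSCs sorted from SUM149PT, CSCs sorted from HCC1937, non-CSCs sorted from HCC1937, and whole SUM159PT cultures, which the labels place with the CSCs and which were not sorted. No group received a drug or a genetic change. Because the labels do not say whether replicates came from separate cultures, the p-values measure only the spread between these libraries, which may be technical.

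Expression was given as FPKM, the sequenced fragments of a gene divided by its transcript length and by the mapped fragments of the library, a scale on which levels of different genes can be set side by side. The sequencing depth is unknown, since the values are not counts. Between 72 and 93 values in each library lay above 0 and below 0.0001 FPKM, less than whole fragments would usually give, so no counts were recovered. FPKM summed over all genes ranged from 291276 to 366532 in the 12 sorted libraries and from 634746 to 652082 in SUM159PT, where 8534 to 8670 genes exceeded 1 FPKM against 11249 to 11997 in the sorted libraries. Any comparison of SUM159PT with a sorted group therefore joins a line, the absence of sorting and a different spread of FPKM over genes, which cannot be told apart.

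The gate was checked with the genes that define it. CD24 averaged 7.74 FPKM in SUM149PT CSCs and 139 in non-CSCs, and 23.3 FPKM in HCC1937 CSCs and 150.04 in non-CSCs, log2 fold changes of -4.15 and -2.68. CD44 was 84.4 FPKM in SUM149PT CSCs against 64.5 in non-CSCs (log2 fold change 0.39, adjusted p = 0.00168) and 106 against 97.8 FPKM in HCC1937 (log2 fold change 0.12, adjusted p = 0.314). The SUM159PT cultures held little CD24 mRNA (0.729 FPKM) and, as deposited, less CD44 mRNA (28.8 FPKM) than any sorted group. The gate reads surface protein, which mRNA does not measure, and the study took SUM159PT as CSCs from its surface markers.

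Markers of epithelial and mesenchymal state moved with the gate in both lines. All 5 epithelial markers (EPCAM, CDH1, KRT8, KRT18 and KRT19) were lower and all 5 mesenchymal markers (VIM, ZEB1, ZEB2, FN1 and CDH2) were higher in CSCs of both lines. Of all tested genes 41.5% were lower and 33.3% higher in SUM149PT CSCs, and 15.3% and 10.3% in HCC1937 CSCs. The epithelial markers summed to 122 to 127 FPKM in SUM149PT CSCs, where KRT19 was the most abundant, against 1637 to 1687 in non-CSCs, and to 419 to 503 FPKM in HCC1937 CSCs, led by KRT8, against 1216 to 1427 in non-CSCs. VIM, the most abundant mesenchymal marker in every group, averaged 2090 FPKM in SUM149PT CSCs, 244 in non-CSCs, 917 in HCC1937 CSCs, 156 in non-CSCs and 1078 in SUM159PT. In SUM159PT, ZEB1 (0.204 FPKM), ZEB2 (0.158) and CDH2 (2.86) averaged less than in any sorted group, and all 5 mesenchymal markers were lower than in SUM149PT CSCs (median log2 fold change -2.89), beside 53.3% of all tested genes and a median of -0.60. Against HCC1937 CSCs, where 57.2% of all tested genes were lower and 27.6% higher, ZEB1, ZEB2 and CDH2 were lower, FN1 was higher (158 against 29.7 FPKM) and VIM did not pass (adjusted p = 0.135). The epithelial sum in SUM159PT was 276 to 291 FPKM, with EPCAM at 0.0467 and CDH1 at 0.0681 FPKM. Fold changes of SUM159PT moved with GC content, as described below. Over genes below 45% GC their medians were -2.32 against SUM149PT CSCs and -2.50 against HCC1937 CSCs. The marker values of SUM159PT are as deposited, and the part of GC content in them was not tested.

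Markers of stroma, led by COL1A1, summed to 234 to 239 FPKM in SUM149PT CSCs, 66.97 to 70.3 in non-CSCs, 11.04 to 11.7 in HCC1937 CSCs, 5.92 to 7.66 in non-CSCs and 41.1 to 46.3 in SUM159PT. Members of that list went both ways in SUM149PT, where DCN averaged 1.80 FPKM in CSCs and 16.2 in non-CSCs and LUM 0.165 and 0.391. Of 4 leukocyte markers, PTPRC and CD3E stayed under 0.1 FPKM in every library, while CD14 and CD68 gave sums of 18.2 to 19.3 FPKM in SUM149PT CSCs and 95.6 to 103 in non-CSCs, 93.5 to 108 in HCC1937 CSCs and 67.4 to 72.5 in non-CSCs, and 47.7 to 54.0 in SUM159PT. The 3 endothelial markers summed to at most 1.83 FPKM in any library. These marker levels differ between the same groups as the Hippo genes below, and their part in those results was not tested.

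The coactivators YAP1 and WWTR1 moved in opposite directions in SUM149PT. YAP1 (chr11:102110461-102233423, forward strand; this and the other gene positions are those of GENCODE release 29 on GRCh38) measured 24.2, 23.6 and 24.3 FPKM in the 3 libraries of SUM149PT CSCs and 13.4, 13.5 and 14.1 FPKM in those of non-CSCs. The fractions were well apart, and YAP1 was 1.75-fold higher in CSCs (log2 fold change 0.81, SE 0.0524, adjusted p = 4.58e-05). WWTR1 (chr3:149517235-149736714, reverse strand) measured 8.21, 7.74 and 7.94 FPKM in CSCs and 17.6, 17.3 and 16.5 FPKM in non-CSCs. Again no library of one fraction reached the range of the other, and WWTR1 was 2.14-fold lower in CSCs (log2 fold change -1.10, SE 0.0573, adjusted p = 2.07e-05). In bulk RNA, fewer cells that express a gene and less RNA per cell cannot be told apart.

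HCC1937 did not show this pattern. YAP1 was 22.4, 22.0 and 23.9 FPKM in HCC1937 CSCs and 22.1, 21.2 and 21.7 FPKM in non-CSCs, and WWTR1 was 24.2, 23.9 and 24.9 FPKM in CSCs and 21.9, 24.2 and 24.2 FPKM in non-CSCs. The fractions overlapped for both genes, with a log2 difference of 0.07 for YAP1 (95% interval -0.09 to 0.24, adjusted p = 0.486) and 0.06 for WWTR1 (95% interval -0.12 to 0.23, adjusted p = 0.605). These small differences depended on the setting, with YAP1 at 0.197 and WWTR1 at 0.18 under TPM and at -0.00211 and -0.0464 with a GC trend removed, and passed under none. The CSC effect itself differed between the lines, by 0.74 for YAP1 (adjusted p = 1.55e-05) and by -1.15 for WWTR1 (adjusted p = 1.57e-06), SUM149PT minus HCC1937 on the log2 scale. Both differences, and both SUM149PT fold changes, passed the limit under each scaling tried.

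Both coactivators were lower in SUM159PT as deposited. YAP1 was 3.29, 3.15 and 3.73 FPKM and WWTR1 was 1.52, 1.44 and 1.44 FPKM, below every sorted library for both genes. Set in order of mean, YAP1 ran from SUM149PT CSCs (24.0 ± 0.398 FPKM, SD, n = 3) to HCC1937 CSCs (22.8 ± 1.01), HCC1937 non-CSCs (21.7 ± 0.486), SUM149PT non-CSCs (13.7 ± 0.354) and SUM159PT (3.39 ± 0.307). Neighbours among the first 3 groups overlapped. WWTR1 ran from HCC1937 CSCs (24.3 ± 0.516 FPKM) and HCC1937 non-CSCs (23.4 ± 1.33), which overlapped, to SUM149PT non-CSCs (17.1 ± 0.594), SUM149PT CSCs (7.96 ± 0.232) and SUM159PT (1.46 ± 0.0450).

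**Figure D1:**
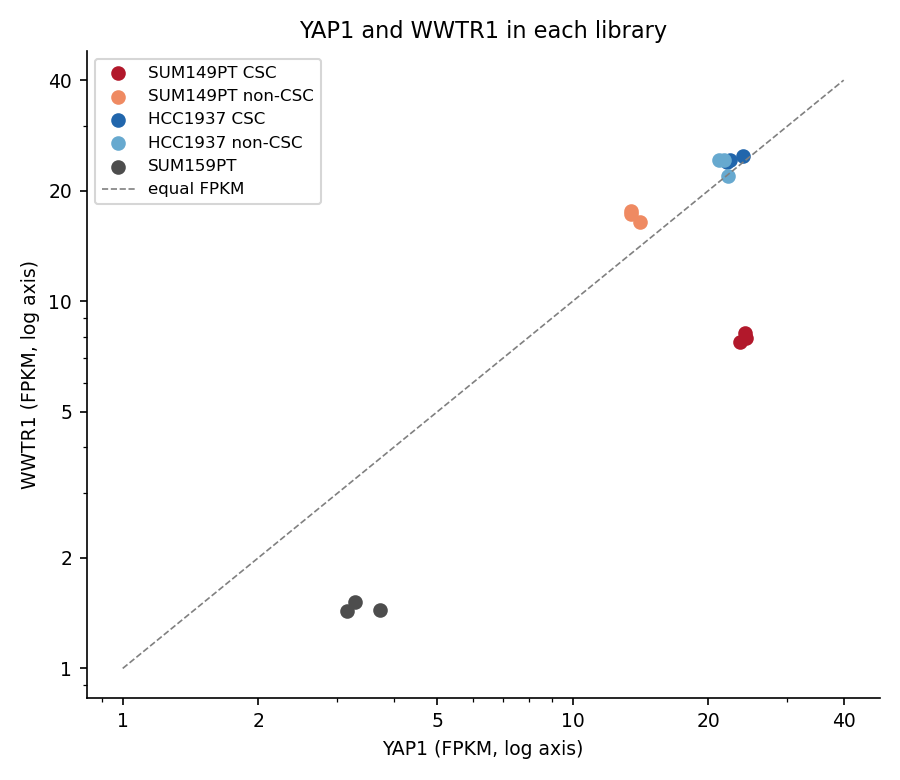
WWTR1 against YAP1 in FPKM, both on log axes, with 1 point for each of the 15 libraries coloured by group and a dashed line where the levels are equal. SUM149PT CSCs (YAP1 mean 24.0, WWTR1 mean 7.96) and SUM159PT (3.39 and 1.46) lie below the line, and SUM149PT non-CSCs (13.7 and 17.1) lie above it.

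Within a library the ratio of WWTR1 to YAP1 does not depend on a factor that scales all genes alike. It was 0.332 ± 0.00672 (SD, n = 3) in SUM149PT CSCs and 1.26 ± 0.0745 in non-CSCs, with no overlap and a log2 difference of -1.92. An exact two-sided permutation test of 3 against 3 libraries gave p = 0.1, the smallest it can give. In HCC1937 the ratio was 1.07 in CSCs and 1.08 in non-CSCs (log2 difference -0.01, exact permutation p = 0.9), and in SUM159PT it was 0.434. The summed FPKM of both genes, a measure chosen after the values were seen, varied less between fractions than either gene in SUM149PT, with means of 31.98 in CSCs and 30.8 in non-CSCs. The sums were 47.1 and 45.1 FPKM in the HCC1937 fractions and 4.85 FPKM in SUM159PT. As deposited, the libraries of CSCs lay above those of non-CSCs in both sorted lines (exact permutation p = 0.1 in each). With a GC trend removed the log2 fold changes of YAP1 and WWTR1 were 0.64 and -1.30 in SUM149PT and -0.00211 and -0.0464 in HCC1937. The sum was not recalculated under that setting, so no direction is given for it.

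TEAD1 to TEAD4 encode the DNA-binding partners of YAP and TAZ, and their summed FPKM, also chosen after the values were seen, was 42.6 in SUM149PT CSCs, 44.2 in non-CSCs, 45.05 in HCC1937 CSCs, 40.6 in non-CSCs and 55.9 in SUM159PT. As deposited, the TEAD sums of CSCs and non-CSCs were apart in both sorted lines (exact permutation p = 0.1 in each, the smallest possible). In SUM149PT the log2 fold changes of TEAD1 to TEAD4 were 0.08, -0.27, 0.02 and 0.03 under upper quartile scaling. With a GC trend removed they were -0.18, -0.08, 0.23 and 0.24. The sum was not recalculated under these settings, so no direction is given for it in SUM149PT. TEAD3 (chr6:35473597-35497076, reverse strand) made up 42.8% of it in SUM149PT CSCs and 42.5% in non-CSCs, and TEAD4 (chr12:2959330-3040673, forward strand) made up 51.0% in SUM159PT. TEAD1 (chr11:12674591-12944483, forward strand) made up 27.4%, 26.1%, 33.0% and 24.9% of the sum in SUM149PT CSCs and non-CSCs and HCC1937 CSCs and non-CSCs, and 1.42% in SUM159PT. TEAD2 (chr19:49340595-49362457, reverse strand) gave the smallest share in each sorted group, between 8.16% and 18.7%. The TEAD1 share differed between fractions by 1.298 percentage points in SUM149PT (exact permutation p = 0.5), or 0.352 to 2.69 without single libraries, and by 8.09 in HCC1937 (exact permutation p = 0.1). The sum and the shares in SUM159PT are as deposited and set TEAD1 (41.3% GC) beside TEAD4 (60.4% GC), in a line whose fold changes moved with GC content as described below. With a GC trend removed the log2 fold change of TEAD4 against SUM149PT CSCs goes from 1.62 to 0.28 and that of TEAD1 from -3.72 to -2.43, and the shares were not corrected for it.

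**Figure D2:**
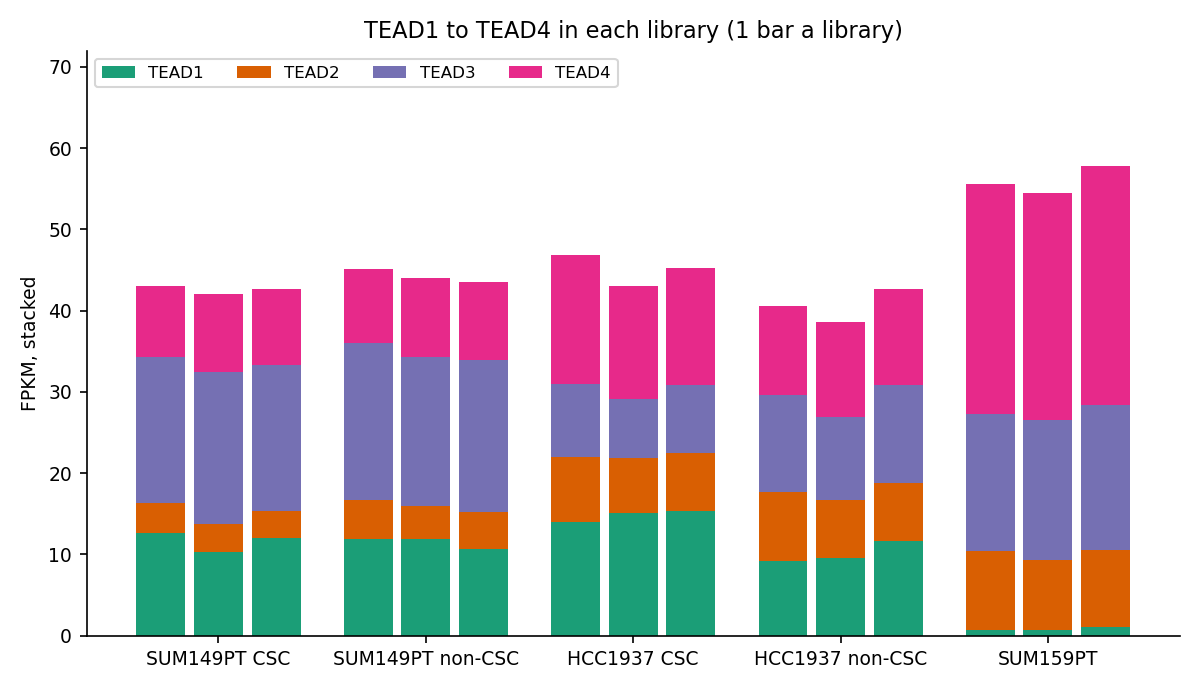
FPKM of TEAD1, TEAD2, TEAD3 and TEAD4 stacked on a linear axis from 0, with 1 bar for each library and 3 bars a group. TEAD1 averages between 10.1 and 14.8 FPKM in the sorted groups and 0.800 FPKM in SUM159PT, and TEAD4 averages 28.6 FPKM in SUM159PT against 9.24 to 14.8 FPKM in the sorted groups.

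Of the 4 TEAD genes, 2 were higher and 1 lower in HCC1937 CSCs, where 10.3% and 15.3% of all tested genes were, and 1 was lower and none higher in SUM149PT CSCs, where 41.5% were lower and 33.3% higher. In HCC1937, TEAD1 measured 13.997, 15.1 and 15.4 FPKM in CSCs and 9.20, 9.52 and 11.6 FPKM in non-CSCs. The fractions did not overlap, and TEAD1 was 1.47-fold higher in CSCs (log2 fold change 0.55, SE 0.11, adjusted p = 0.0164). TEAD4 was 16.0, 13.9 and 14.4 FPKM in CSCs and 10.9, 11.7 and 11.8 FPKM in non-CSCs, 1.29-fold higher (log2 fold change 0.36, adjusted p = 0.0249). TEAD3 was 8.94, 7.21 and 8.29 FPKM in CSCs and 11.9, 10.2 and 12.1 FPKM in non-CSCs, 1.40-fold lower (log2 fold change -0.48, adjusted p = 0.0295). The fractions were apart for TEAD3 and TEAD4 too, while for TEAD2, at 6.79 to 8.01 FPKM in CSCs and 7.11 to 8.48 FPKM in non-CSCs, they overlapped.

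These 3 calls in HCC1937 were close to the limit. For TEAD1 the adjusted p was 0.0579 without non-CSC replicate 1, 0.0629 without non-CSC replicate 2, 0.0584 without CSC replicate 2 and 0.0554 without CSC replicate 3. For TEAD4 it was 0.0885, 0.0730 and 0.0589 without non-CSC replicates 1, 2 and 3, and 0.0615 without CSC replicate 3. With the replicate number as a block it was 0.0843 for TEAD4. For TEAD3 it was 0.0997 and 0.0885 without non-CSC replicates 1 and 3, and 0.0767 and 0.0722 without CSC replicates 2 and 3. With no minimum on expression the TEAD1 and TEAD3 calls were lost (adjusted p = 0.0580 and 0.0916), and TEAD3 also missed the limit after rescaling to TPM (0.0960) and after removal of a trend on GC content (0.0663).

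In SUM149PT, TEAD2 was 3.79, 3.38 and 3.26 FPKM in CSCs and 4.71, 3.97 and 4.57 FPKM in non-CSCs. The fractions did not overlap, and the log2 fold change was -0.33 (SE 0.0957, adjusted p = 0.0208). This call was lost without non-CSC replicate 1 (adjusted p = 0.0641), non-CSC replicate 3 (0.0633), CSC replicate 2 (0.0623) or CSC replicate 3 (0.0695). It was also lost with no expression minimum (0.0600), under quantile normalization (0.203) and after removal of a GC trend (0.493). The log2 fold change was -0.33 with no expression minimum, -0.15 under quantile normalization and -0.08 with a GC trend removed. TEAD1 was 12.6, 10.3 and 12.1 FPKM in CSCs against 11.9, 11.9 and 10.7 in non-CSCs. The log2 differences of TEAD1 (0.01), TEAD3 (-0.04) and TEAD4 (-0.04) did not pass (adjusted p = 0.906, 0.479 and 0.628). With a GC trend removed, TEAD3 and TEAD4 reached 0.23 and 0.24 (adjusted p = 0.00927 and 0.00627), in the opposite direction to the values as deposited, so no direction is given for them.

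The targets CTGF and CYR61 encode secreted proteins of the CCN family that bind matrix and integrins, and they are among the genes used most often as readouts of YAP and TAZ. CTGF (chr6:131948176-131951373, reverse strand) measured 33.0, 31.2 and 30.8 FPKM in SUM149PT CSCs and 22.2, 21.9 and 20.9 FPKM in non-CSCs. In HCC1937 it was 81.4, 69.2 and 66.1 FPKM in CSCs and 40.9, 41.1 and 35.2 FPKM in non-CSCs. CSCs were above non-CSCs in all libraries of both lines, by 1.46-fold in SUM149PT (log2 fold change 0.54, SE 0.0583, adjusted p = 0.00035) and 1.84-fold in HCC1937 (log2 fold change 0.88, SE 0.113, adjusted p = 0.0036). Across the alternatives, leaving out single libraries included, the log2 fold change ranged from 0.51 to 0.61 and from 0.79 to 1.01.

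CYR61 (chr1:85580761-85583962, forward strand) was the most abundant of the 10 genes in every group. It measured 382, 334 and 339.8 FPKM in HCC1937 CSCs and 169, 187 and 167 FPKM in non-CSCs. The fractions were far apart, with CSCs 2.01-fold higher (log2 fold change 1.01, SE 0.0881, adjusted p = 0.00101). In SUM149PT it was 80.5, 79.4 and 82.2 FPKM in CSCs and 77.1, 77.9 and 70.1 FPKM in non-CSCs. The CSC libraries were the higher ones, but the log2 difference of 0.11 did not pass (adjusted p = 0.179), although it did under upper quartile scaling (0.18, adjusted p = 0.0355) and quantile normalization (0.21, adjusted p = 0.0347). The CSC effect on CYR61 was smaller in SUM149PT than in HCC1937 (difference -0.90, adjusted p = 4.16e-05).

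ANKRD1 (chr10:90912096-90921276, reverse strand), which encodes an ankyrin repeat protein of nucleus and sarcomere, was expressed at less than 1 FPKM in every library. It measured 0.384, 0.482 and 0.385 FPKM in SUM149PT CSCs and 0.110, 0.0745 and 0.0779 FPKM in non-CSCs. The fractions were apart, and the fold change on the log2(FPKM + 0.1) scale was 1.46 (SE 0.113, adjusted p = 9.27e-05). At such low levels the size depends on the added constant, from 0.38 with 1 FPKM to 2.14 with 0.01 FPKM, and the gene passed with either. In HCC1937 it was 0.670, 0.381 and 0.260 FPKM in CSCs and 0.251, 0.244 and 0.415 FPKM in non-CSCs, which overlapped (log2 difference 0.37, adjusted p = 0.455). That difference ran from 0.0708 to 0.62 without single libraries and was 0.13 with 1 FPKM added, and it passed under no alternative.

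AMOTL2 (chr3:134355874-134375479, reverse strand) encodes an angiomotin family scaffold that binds YAP and is also a target of it. It was 28.2, 26.6 and 26.9 FPKM in SUM149PT CSCs and 26.1, 25.6 and 24.8 FPKM in non-CSCs, and 40.8, 40.1 and 40.6 FPKM in HCC1937 CSCs and 43.8, 44.4 and 44.5 FPKM in non-CSCs. The libraries did not overlap in either line, yet the log2 differences of 0.09 and -0.13 did not pass (adjusted p = 0.169 and 0.171). In SUM149PT the difference passed under upper quartile scaling (0.16, adjusted p = 0.0358) and with a GC trend removed (0.31, adjusted p = 0.00406), and in HCC1937 with no expression minimum (adjusted p = 0.00591), while there it was -0.00217 under TPM.

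**Figure D3:**
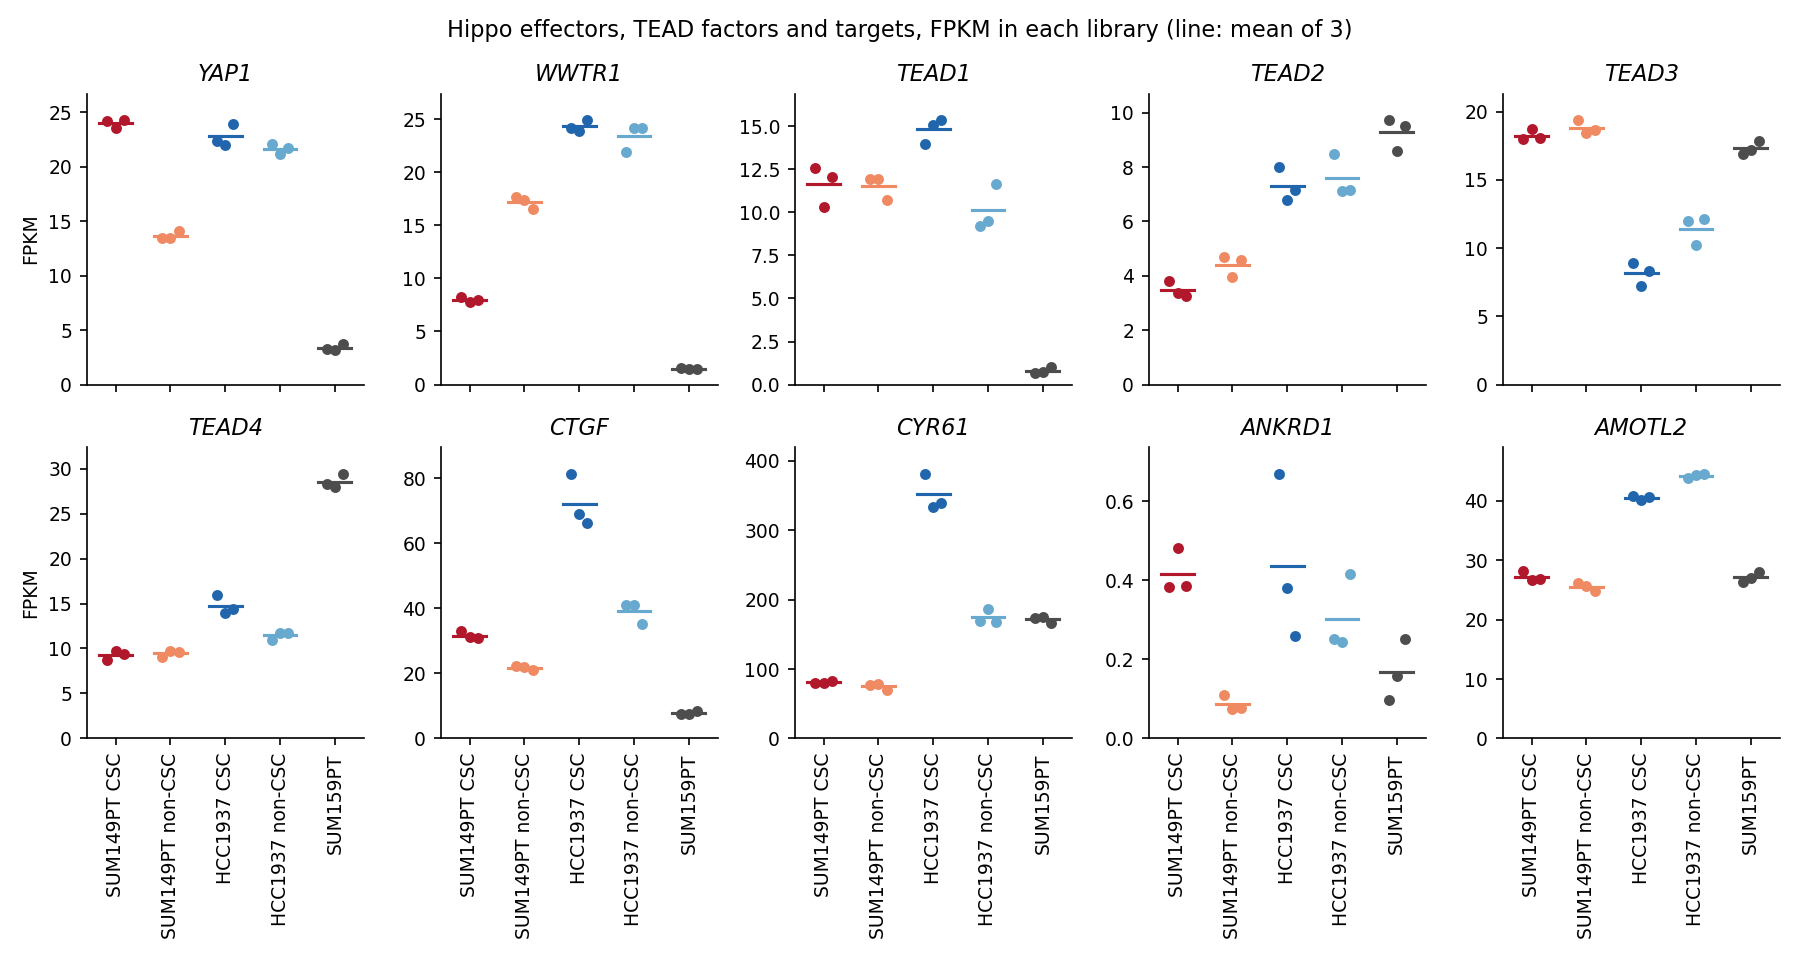
FPKM of each of the 10 genes in each library, with 1 panel a gene on its own linear axis from 0, 1 point a library and a line at the mean of the 3 libraries of each group. CTGF averages 72.2 FPKM in HCC1937 CSCs and 7.72 in SUM159PT, and CYR61 averages 352 FPKM in HCC1937 CSCs and 75.009 in SUM149PT non-CSCs.

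Because CTGF and ANKRD1 were both higher in SUM149PT CSCs, the 250 bases upstream of their RefSeq start sites were examined for GGAATG, the core of the motif bound by TEAD factors, on both strands (reverse complement CATTCC). The sequence of CTGF, which was higher in CSCs of both lines, is shown from RefSeq on GRCh38.p14, at chr6:131951373-131951622 on the reverse strand, written 5' to 3' on the strand of the gene with matches in capitals.
CTGF: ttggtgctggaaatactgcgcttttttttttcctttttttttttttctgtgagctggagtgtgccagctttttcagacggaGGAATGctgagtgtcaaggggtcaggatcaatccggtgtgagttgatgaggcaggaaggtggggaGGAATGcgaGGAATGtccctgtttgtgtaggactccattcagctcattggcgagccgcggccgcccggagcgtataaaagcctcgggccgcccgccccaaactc
CTGF had 3 matches, beginning at positions -169, -104 and -95 from the start site, and ANKRD1 had 2, at -220 and -128. For ANKRD1 the RefSeq start lies inside the gene span that GENCODE gives, so its match at -128 is upstream by RefSeq and within the first exon by GENCODE. In windows of 300 bases, 250 before and 50 after a start site, 14.03% of 35116 RefSeq windows held at least 1 match, 1.36% held at least 2 and 0.125% held at least 3. Of the 10 genes, 7 had an entry, with 10 windows in all. Besides CTGF and ANKRD1, YAP1 had 1 match and 1 of the windows of AMOTL2 had 1, and the windows of WWTR1, TEAD2 and TEAD3 held none. CYR61, TEAD1 and TEAD4 had no entry. A match describes the letters in the window and is no evidence of binding.

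Counted together, 3 of the 10 genes were higher in SUM149PT CSCs (YAP1, CTGF and ANKRD1), where 33.3% of 16037 tested genes were higher, and 2 were lower (WWTR1 and TEAD2), where 41.5% were lower. WWTR1 and ANKRD1 also changed at least 2-fold, as did 34.9% of tested genes. In HCC1937, 4 of 10 were higher (CTGF, CYR61, TEAD1 and TEAD4) against 10.3% of 15582 tested genes, 1 was lower (TEAD3) against 15.3%, and CYR61 changed at least 2-fold, as did 8.71% of genes. The median log2 fold change of the 10 genes was 0.05 in SUM149PT, beside -0.11 for all tested genes, and 0.22 in HCC1937, beside -0.03. The plot of fold changes by line shows that CTGF passed in the same direction in both lines.

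**Figure D4:**
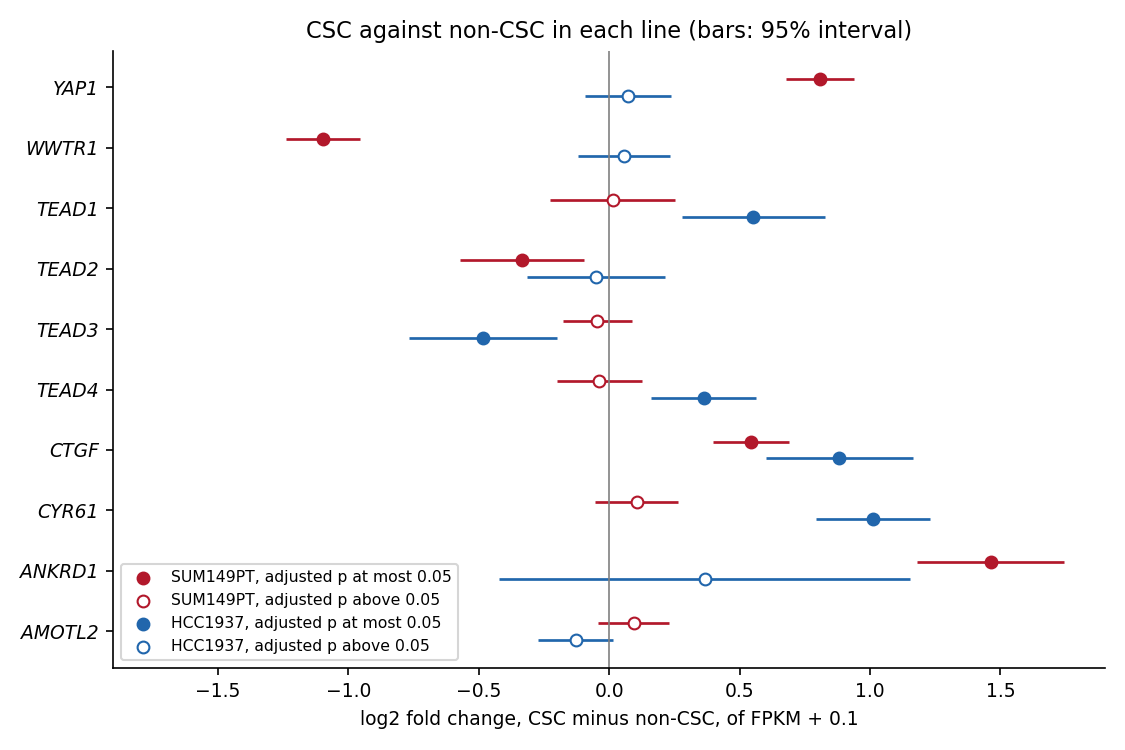
Log2 fold change of FPKM + 0.1, CSC minus non-CSC, for the 10 genes in SUM149PT (red) and HCC1937 (blue), with 95% intervals from limma and filled points at an adjusted p of at most 0.05. CTGF is filled in both lines (0.54 and 0.88), while YAP1 (0.81) and WWTR1 (-1.10) are filled in SUM149PT.

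The CSC effect differed between the lines for 9 of the 10 genes, in a test of the difference over the 12 sorted libraries. It was more positive in SUM149PT for 4 genes, beside 28.1% of 16451 tested genes, and more negative for 5, beside 33.0%. After WWTR1, YAP1 and CYR61, given above, the differences (SUM149PT minus HCC1937, log2) were 1.096 for ANKRD1 (adjusted p = 0.0233), -0.54 for TEAD1 (0.0101), 0.44 for TEAD3 (0.0119), -0.40 for TEAD4 (0.00573), -0.34 for CTGF (0.0404) and 0.22 for AMOTL2 (0.0159). For TEAD2 it was -0.28 (adjusted p = 0.117).

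The calls for CTGF, ANKRD1 and AMOTL2 in that test rested on the settings. For CTGF the adjusted p was 0.0796, 0.0722 and 0.0501 without SUM149PT non-CSC replicates 1, 2 and 3, 0.0756 and 0.0832 without SUM149PT CSC replicates 2 and 3, 0.0863 without HCC1937 non-CSC replicate 3, 0.0713 without HCC1937 CSC replicate 1 and 0.0707 with no expression minimum. For ANKRD1 it was 0.0538 without SUM149PT CSC replicate 2, 0.0532 without HCC1937 non-CSC replicate 3, 0.0659 with no expression minimum and 0.120 with 1 FPKM added. Its size moved too, from 0.25 with 1 FPKM added to 1.69 with 0.01 FPKM added or under quantile normalization. AMOTL2 lost its call after rescaling to TPM (0.14, adjusted p = 0.293) and was 0.34 with a GC trend removed, where TEAD4 was -0.26. TEAD2 passed after rescaling to TPM (adjusted p = 0.0472), without HCC1937 non-CSC replicate 1 (0.0492) and with the replicate number as a block (0.0269).

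Set against SUM149PT, most of the genes were higher in HCC1937. Between the CSC fractions, 7 of 10 were higher in HCC1937, beside 45.1% of 16373 tested genes, and TEAD3 was lower, beside 31.8%. CYR61 differed most (log2 2.12, 4.35-fold), followed by WWTR1 (1.60, 3.03-fold), CTGF (1.18), TEAD2 (1.05), TEAD4 (0.67), AMOTL2 (0.57, but 0.38 under upper quartile scaling) and TEAD1 (0.35, adjusted p = 0.0352), and TEAD3 differed by -1.16. YAP1 differed by -0.08 (95% interval -0.22 to 0.07, adjusted p = 0.315) as deposited, but passed under upper quartile scaling (-0.27, adjusted p = 0.00703) and quantile normalization (-0.31, adjusted p = 0.00225) and was 0.01 with a GC trend removed. The TEAD1 call was lost without SUM149PT CSC replicates 2 (adjusted p = 0.134) or 3 (0.0528) and without HCC1937 CSC replicates 2 (0.0793) or 3 (0.0877). It was also lost with no expression minimum (0.0771) and under upper quartile scaling (0.350), quantile normalization (0.272) and TPM (0.185). The TEAD1 value was 0.35 with no expression minimum, 0.15 under upper quartile scaling, 0.18 under quantile normalization and 0.27 under TPM.

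Between the non-CSC fractions, 8 of 10 were higher in HCC1937, beside 41.4% of tested genes, and TEAD3 was lower (-0.72), beside 35.4%. The values were 1.22 for CYR61, 1.08 for ANKRD1, 0.84 for CTGF, 0.79 for AMOTL2, 0.77 for TEAD2, 0.66 for YAP1, 0.45 for WWTR1 and 0.27 for TEAD4. The TEAD4 value was smaller and missed the limit under upper quartile scaling (0.099, adjusted p = 0.172), quantile normalization (0.131, adjusted p = 0.0866) and TPM (0.107, adjusted p = 0.191). The ANKRD1 value was 0.26 with 1 FPKM added and 1.66 with 0.01 FPKM added, and the WWTR1 value was 0.27 under upper quartile scaling, 0.258 under quantile normalization and 0.28 under TPM, and both genes passed in each. TEAD1 differed by -0.19 (adjusted p = 0.219), but passed as lower in HCC1937 under upper quartile scaling (-0.36, adjusted p = 0.0379) and quantile normalization (-0.40, adjusted p = 0.0199). These comparisons use the same libraries as those between fractions.

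YAP1, WWTR1, TEAD1 and CTGF were lower in SUM159PT than in either CSC group under every alternative tried, by amounts that depended on the setting. Its TEAD1 level was 0.65004, 0.743 and 1.01 FPKM and its CTGF level 7.38, 7.43 and 8.37 FPKM, below all 12 sorted libraries for both genes. Against SUM149PT CSCs the log2 fold changes were -3.72 for TEAD1 (SE 0.137), -2.79 for YAP1 (SE 0.0669), -2.37 for WWTR1 (SE 0.0591) and -2.02 for CTGF (SE 0.0905). Against HCC1937 CSCs they were -4.07, -2.72, -3.97 and -3.21. The largest adjusted p of these 8 values was 1.92e-10. Over the alternatives the values against SUM149PT CSCs ran from -4.86 to -2.35 for TEAD1, -3.89 to -1.89 for YAP1, -3.48 to -0.998 for WWTR1 and -3.115 to -1.58 for CTGF, and the WWTR1 value of -0.998, with a GC trend removed, was near the median of all tested genes under that setting (-0.84). Against HCC1937 CSCs they ran from -5.13 to -2.53 for TEAD1, -3.73 to -1.72 for YAP1, -5.002 to -2.64 for WWTR1 and -4.22 to -2.57 for CTGF. Both comparisons use the same SUM159PT libraries.

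Other members were as high or higher in SUM159PT as deposited. TEAD4 was 28.3, 27.9 and 29.4 FPKM, above every sorted library, and TEAD2 was 9.74, 8.61 and 9.52 FPKM. Against SUM149PT CSCs, TEAD4 (log2 1.62), TEAD2 (1.39) and CYR61 (1.09) were higher, although CYR61 was -0.00148 after rescaling to TPM and, with a GC trend removed, TEAD4 was 0.28 and TEAD2 0.13 (adjusted p = 0.239). Against HCC1937 CSCs, TEAD3 (1.08), TEAD4 (0.95) and TEAD2 (0.34) were higher, but TEAD4 and TEAD2 turned to -0.05 and -0.66 under TPM and to -0.23 and -0.77 with a GC trend removed, where TEAD3 was -0.08. Over the alternatives the values against SUM149PT CSCs ran from 0.28 to 2.06 for TEAD4, 0.13 to 1.99 for TEAD2 and -0.00148 to 1.53 for CYR61, and those against HCC1937 CSCs from -0.0784 to 1.715 for TEAD3, -0.23 to 1.58 for TEAD4 and -0.77 to 1.02 for TEAD2. CYR61, at 174, 175 and 166 FPKM in SUM159PT, was lower than in HCC1937 CSCs (-1.03, from -2.04 under TPM to -0.40 under upper quartile scaling) and overlapped HCC1937 non-CSCs.

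AMOTL2, at 26.3, 27.0 and 28.0 FPKM in SUM159PT, overlapped SUM149PT CSCs (log2 -0.01), yet was 0.43 under upper quartile scaling and -1.18 with a GC trend removed. It was lower than in HCC1937 CSCs (-0.58), but 0.06 under upper quartile scaling and -1.63 with a GC trend removed. ANKRD1, at 0.0978, 0.158 and 0.252 FPKM, was lower than in both CSC groups (-0.97 and -0.96), but -2.07 and -1.97 under TPM, 0.20 and 0.46 under quantile normalization, and -0.03 and -0.10 with a GC trend removed. TEAD3 differed from SUM149PT CSCs by -0.08 as deposited, by 0.36 under upper quartile scaling and by -1.39 with a GC trend removed.

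In all, 3 of 10 genes were higher than in SUM149PT CSCs, beside 28.3% of tested genes, and 5 were lower, beside 53.3%. Against HCC1937 CSCs 3 were higher, beside 27.6%, and 7 were lower, beside 57.2%. The median log2 fold change of the 10 genes was -0.53 and -0.998, beside -0.60 and -0.85 for all tested genes.

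The fold changes of SUM159PT moved with the GC content of the transcripts across the whole table. Over 5123 genes with less than 45% GC the median log2 fold change against SUM149PT CSCs was -2.32, over 4698 genes with 45 to 55% it was -0.51, and over 4367 genes above 55% it was 0.55, bands chosen after the values were seen. Against HCC1937 CSCs these medians were -2.50, -0.71 and 0.32. WWTR1 (40.9% GC), TEAD1 (41.3%), ANKRD1 (43.3%) and YAP1 (43.5%) lie in the lowest band, CYR61 (50.3%) and CTGF (51.5%) in the middle, and AMOTL2 (56.7%), TEAD2 (58.4%), TEAD3 (59.8%) and TEAD4 (60.4%) in the highest. With a smooth GC trend removed, YAP1 differed from SUM149PT CSCs by -1.89, WWTR1 by -0.998, TEAD1 by -2.43 and CTGF by -2.61, and from HCC1937 CSCs by -1.898, -2.70, -2.88 and -3.79. The removal kept the downward shift of the whole table, with a median over all tested genes of -0.84 and -1.03, so the WWTR1 value against SUM149PT CSCs was near that of a typical gene. Between the sorted fractions the band medians spanned less, 0.05, -0.08 and -0.31 in SUM149PT and 0.03, -0.03 and -0.11 in HCC1937.

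**Figure D5:**
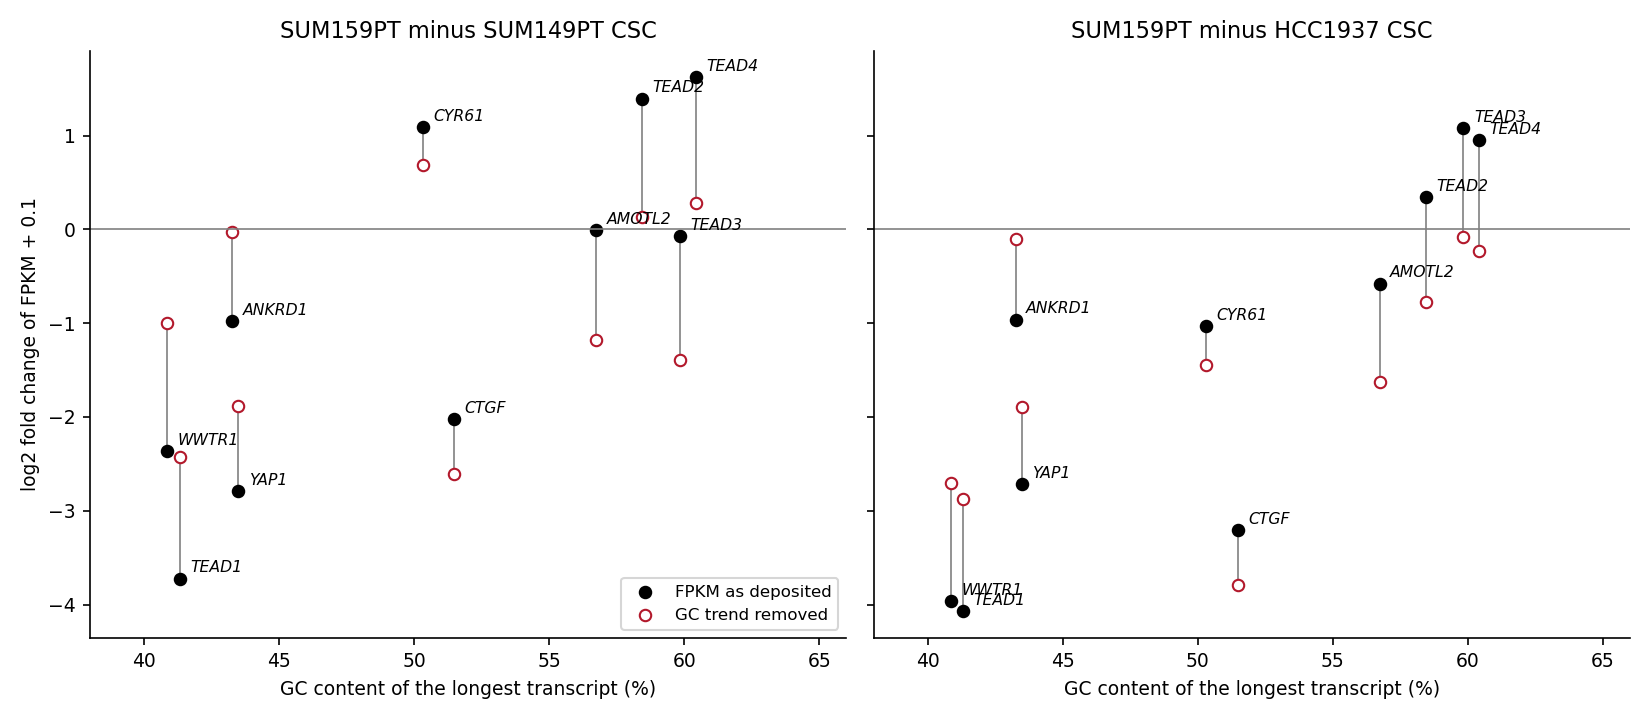
Log2 fold change of FPKM + 0.1 for SUM159PT against SUM149PT CSCs (left) and HCC1937 CSCs (right), against the GC percentage of each gene's longest transcript, as deposited (black) and with the GC trend of all genes removed (open red), joined for each gene. YAP1, WWTR1, TEAD1 and CTGF stay below 0 in both panels, where the medians of all genes with the trend removed are -0.84 and -1.03, while TEAD4 goes from 0.95 to -0.23 against HCC1937 CSCs.

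Over the 5 groups as deposited the ratio of the highest to the lowest group mean was 18.5 for TEAD1, 16.6 for WWTR1, 9.35 for CTGF, 7.08 for YAP1, 4.997 for ANKRD1, 4.69 for CYR61, 3.09 for TEAD4, 2.67 for TEAD2, 2.31 for TEAD3 and 1.73 for AMOTL2. SUM159PT was the lowest group for TEAD1, WWTR1, CTGF and YAP1 and the highest for TEAD4 and TEAD2. With a GC trend removed, as given above, SUM159PT lay further below HCC1937 CSCs for CTGF than for TEAD1 or WWTR1. The ratios were not corrected for GC content, so their sizes and order hold only as deposited. CTGF ran from HCC1937 CSCs (72.2 ± 8.08 FPKM) to HCC1937 non-CSCs (39.1 ± 3.35), SUM149PT CSCs (31.6 ± 1.17), SUM149PT non-CSCs (21.7 ± 0.660) and SUM159PT (7.72 ± 0.559), with no overlap between neighbours. CYR61 ran from HCC1937 CSCs (352 ± 26.0 FPKM) to HCC1937 non-CSCs (174 ± 11.1) and SUM159PT (172 ± 4.88), which overlapped, then SUM149PT CSCs (80.7 ± 1.43) and non-CSCs (75.009 ± 4.28). For ANKRD1 every pair of neighbours overlapped. The ratio of CYR61 to CTGF, chosen after the values were seen, was 2.55 and 3.46 in SUM149PT CSCs and non-CSCs, 4.88 and 4.48 in HCC1937 CSCs and non-CSCs, and 22.3 in SUM159PT.

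For 5 of the 10 members, the 2 coactivators and the targets CTGF, CYR61 and ANKRD1, the genes whose log2 levels followed them most closely over the 15 libraries were taken from 10490 expressed and varying genes. The 5 were picked by name, and the other members were not searched. For YAP1 they were ZFR (Pearson r = 0.999), PHLDA1 (0.998) and SKIV2L2 (0.998), and for WWTR1 they were NRD1 (0.998), TAF5L (0.998) and ATP6V1C1 (0.997). For CTGF they were TMEM67 (0.987), FZD8 (0.987) and SPDL1 (0.986), for CYR61 PFAS (0.976), TXNDC15 (0.969) and MN1 (0.965), and for ANKRD1 CUTC (0.903), SFTA1P (0.898) and EML1 (0.895). The libraries fall into 5 groups, so these values mainly describe likeness of group means, and libraries of a group share their line and processing. All genes named for YAP1, WWTR1 and CTGF were lowest in SUM159PT, ZFR for example at 0.838 FPKM. Fold changes of that line moved with GC content, and r was not calculated without it.

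The core kinase module upstream of YAP and TAZ (STK3, STK4, SAV1, LATS1, LATS2, MOB1A and MOB1B) was lower in SUM149PT CSCs for 4 of 7 genes and higher for 2, with a median log2 fold change of -0.62. Over all tested genes 41.5% were lower and 33.3% higher, with a median of -0.11, and the same shares and the median apply to the other lists in SUM149PT. The largest falls were in SAV1 (-2.39), the scaffold of the kinases, and LATS2 (-1.42), and LATS1 (0.58) and MOB1B (0.33) were higher. In HCC1937 CSCs 2 of 7 were lower, SAV1 (-1.11) and STK3 (-0.52), and LATS2 (0.36) was higher, with a median of 0.11, beside 15.3% lower, 10.3% higher and a median of -0.03 over all tested genes of that line. In SUM159PT all 7 were lower than in SUM149PT CSCs and in HCC1937 CSCs, with medians of -3.01 and -3.17, beside 53.3% and 57.2% of all tested genes and medians of -0.60 and -0.85. With a GC trend removed 7 of 7 passed as lower in each, as did 8803 and 9412 of 14188 genes. Over genes below 45% GC the medians as deposited were -2.32 and -2.50, and no median with the trend removed is given for the kinases. The SUM159PT counts of the lists that follow are as deposited too.

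The list of 19 regulators held genes that pass signals of polarity, contact and tension to the kinases. It also held genes whose products bind YAP, such as PTPN14, so its counts do not measure input to the kinases. In SUM149PT 18 were tested, and 11 were higher and 3 lower in CSCs (median 0.37), beside 33.3% and 41.5% of all tested genes. FAT4 (1.67), an atypical cadherin, and PTPN14 (1.62), a phosphatase that binds YAP, were higher, and CRB3 (-4.77), an apical polarity protein of epithelia, and TAOK3 (-1.74) were lower. FAT4 averaged 0.435 FPKM in CSCs and 0.0687 in non-CSCs, so the size of its fold change depends on the added constant. In HCC1937, 3 of 16 tested were higher and 3 lower (median 0.01), near the 10.3% and 15.3% of all tested genes, with FRMD6 at 0.61, WWC2 at 0.46, CRB3 at -2.08 and AMOTL1 at -0.62. Against SUM149PT CSCs and HCC1937 CSCs, 15 and 12 of 18 were lower in SUM159PT, beside 53.3% and 57.2% of all tested genes.

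The VGLL cofactors bind TEAD factors in place of YAP and TAZ. Of 3 tested in SUM149PT, VGLL3 (0.92) and VGLL4 (0.25) were higher in CSCs and VGLL2 (-1.58) was lower, a median of 0.25. In HCC1937, VGLL1 (-3.25) and VGLL4 (-0.53) were lower in CSCs and none of 3 tested was higher, with a median of -0.53. Of all tested genes in HCC1937 15.3% were lower and 10.3% higher, with a median of -0.03. VGLL2 did not reach a mean of 1 FPKM, and no VGLL gene passed as lower in SUM149PT with that minimum. In SUM159PT 3 of 4 were lower than in either CSC group, beside the 53.3% and 57.2% of all tested genes.

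A list of 18 other YAP and TAZ targets, which shares LATS2 and PTPN14 with the lists above, had 11 genes higher and 6 lower in SUM149PT CSCs (median 0.45), beside 33.3% and 41.5% of all tested genes, and 12 changed at least 2-fold, beside 34.9%. In HCC1937 CSCs 10 were higher and 3 lower (median 0.37), beside 10.3% and 15.3%, and 3 changed at least 2-fold, beside 8.71%. With 0.1 FPKM added, NT5E, a surface nucleotidase, and RBMS3, an RNA-binding protein, had the largest rises in each line, 2.59 and 2.33 in SUM149PT and 1.54 and 1.46 in HCC1937. RBMS3 averaged 2.01 FPKM in SUM149PT CSCs, 0.323 in non-CSCs, 0.597 in HCC1937 CSCs and 0.152 in non-CSCs. At these levels its size and rank depend on the added constant. The largest falls were in IGFBP3 (-4.11) and TGFB2 (-3.52) in SUM149PT and in MYOF (-0.75) and F3 (-0.59) in HCC1937. With no expression minimum 6 were higher in HCC1937. In SUM159PT 13 of 18 were lower and 4 higher than in SUM149PT CSCs, and 14 lower and 3 higher than in HCC1937 CSCs, beside 53.3% and 28.3% and 57.2% and 27.6% of all tested genes.

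Since CTGF and CYR61 also respond early to serum and handling of cells, 16 immediate-early genes were set beside them. In SUM149PT 7 were higher and 7 lower in CSCs (median -0.09), and in HCC1937 2 were higher and 6 lower (median -0.37). Of all tested genes 33.3% were higher and 41.5% lower in SUM149PT and 10.3% and 15.3% in HCC1937, so the counts in SUM149PT and that of higher genes in HCC1937 were near the background. EGR2 (2.32) and EGR1 (1.18) were higher and NR4A1 (-2.60) and ZFP36 (-1.15) lower in SUM149PT, while JUN (0.57) and FOSL1 (0.49) were higher and EGR2 (-1.30) and ZFP36 (-0.64) lower in HCC1937. In HCC1937, EGR2 averaged 0.173 FPKM in CSCs and 0.571 in non-CSCs, so the size and rank of its fall depend on the added constant. Their FPKM summed to 2568 to 2669 in SUM149PT CSCs, 2503 to 2562 in non-CSCs, 1172 to 1352 in HCC1937 CSCs, 1285 to 1426 in non-CSCs and 660.2 to 729 in unsorted SUM159PT. The part of handling in the levels of CTGF and CYR61 was not tested.

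Annotated genes overlap exons of 5 members. WWTR1 shares 795 bases with WWTR1-AS1 (mean 0.141 FPKM), TEAD2 shares 319 with CD37, which is listed at 0, and AMOTL2 shares 187 on its own strand with the pseudogene RPL39P5 (mean 1.36 FPKM). YAP1 shares 628 bases with AP000942.2 and CTGF 195 with AL133346.1, both on the other strand and not used here. Whether strand was used in quantification is not given in the sources used here, so reads of such pairs cannot be told apart.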

How the data were processed

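The authors deposited FPKM values per gene symbol for 15 libraries sequenced on a HiSeq instrument. The submitters' processing notes name Bowtie2 and GRCh38, and the quantification tool is not given in the sources used here. All columns were matched to a library (0 without one). log2(FPKM + 0.1) was fitted with limma 3.58.1 (lmFit and eBayes) in R 4.3.3 over genes whose mean reached 0.1 FPKM, per line for CSC against non-CSC, over the 12 sorted libraries for the difference of effects, and over all 15 libraries between lines. P-values were adjusted by Benjamini-Hochberg over all tested genes, with a limit of 0.05, and 2-fold changes were counted separately. Ratios within libraries were compared by exact two-sided permutation tests.

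Named genes are the 10 members, the gate, epithelial and mesenchymal markers, single stroma and leukocyte markers picked after their values were seen, genes that overlap a member, per pathway list up to the 2 largest rises and 2 largest falls that passed, and, for YAP1, WWTR1, CTGF, CYR61 and ANKRD1, the 3 genes of highest r among genes averaging 1 FPKM or more with an SD of 0.5 or more. Members and lists were chosen with earlier results of these data known. Alternatives were the added constant (0.01 or 1 FPKM), no expression minimum or 1 FPKM, scaling by TPM, by quantiles or by the upper quartile, robust eBayes with a trend, a GC trend removed (spline with 6 degrees of freedom), a replicate block, a fit over all libraries, stricter limits (the study's adjusted p of 0.0001, with its enrichment score limit of 1 read here as a log2 fold change, which the study does not state) and leaving out each library. GC content came from GENCODE release 29 and covered 86.6% to 86.9% of tested genes. The fits were tested on simulated data, and the outcome is not reported here. Depth is unknown, and precision rests on 3 libraries a group. Tables and plots were made with matplotlib 3.10.9, pandas 2.3.3, scipy 1.17.1 and numpy 2.4.6 under Python 3.11.15.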

Additional observations from a re-analysis of the deposited data

Results flagged for a closer look

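The effect of the CSC gate differed between SUM149PT and HCC1937 for 9 of the 10 genes, by an interaction test in limma over the 12 sorted libraries. In that test 28.1% of 16451 tested genes were more positive in SUM149PT and 33.0% more negative. These were 4627 and 5426 genes, and the counts became 5416 and 4792 under quantile normalization and 3907 and 5690 under TPM. The differences, SUM149PT minus HCC1937 in log2 units, were -1.15 for WWTR1, 1.096 for ANKRD1, -0.90 for CYR61, 0.74 for YAP1, -0.54 for TEAD1, 0.44 for TEAD3, -0.40 for TEAD4, -0.34 for CTGF and 0.22 for AMOTL2.
The call for CTGF was lost in 7 of 12 fits that left out 1 library and that for ANKRD1 in 2 of 12. ANKRD1 also lost its call with 1 FPKM added (0.25), CTGF and ANKRD1 with no expression minimum, and AMOTL2 after rescaling to TPM.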

How the results depend on the processing

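Of 1263 values of the 10 genes under an alternative, 1224 kept their direction and 39 reversed, and in either direction 91 missed the limit that they had passed and 21 passed it newly (6 and 4 of these among the reversed), and where no value shows the cause it was not tested. In SUM149PT the 3 genes higher in CSCs became 5 under upper quartile scaling, 6 with a GC trend removed and 1 under the stricter limits, and the 2 lower ones became 1 with no expression minimum, under quantile normalization, with a GC trend removed and under the stricter limits (1 to 2 without single libraries). There TEAD1 was -0.18 with a GC trend removed (-0.0431 to 0.0971 without single libraries), TEAD3 was 0.0238 under upper quartile scaling, 0.00548 under quantile normalization and 0.23 with a GC trend removed, and TEAD4 was 0.0308, 0.0403 and 0.24 under these and 0.00576 under TPM (-0.0705 to 0.00500 without single libraries). In HCC1937 the 4 higher became 0 under the stricter limits (2 to 4 without single libraries), and the 1 lower became 0 under TPM, with a GC trend removed and under the stricter limits (0 to 1 without single libraries). There YAP1 was -0.00211 and WWTR1 -0.0464 with a GC trend removed, TEAD2 was 0.00800 under upper quartile scaling, 0.00905 under quantile normalization, 0.0741 under TPM and 0.0647 with a GC trend removed (-0.117 to 0.0312 without single libraries), and the log2 ratio of WWTR1 to YAP1 (-0.01) ran from -0.0779 to 0.0266 without single libraries. Under the stricter limits the differences between lines became 0 more positive and 1 more negative, the genes higher in HCC1937 became 4 of 7 between CSCs and 1 of 8 between non-CSCs, and the 1 lower between non-CSCs became 0. The 1 gene lower in HCC1937 became 2 under upper quartile scaling and 2 under quantile normalization, in CSCs and in non-CSCs. Between CSCs YAP1 was 0.0119 with a GC trend removed, and ANKRD1 was 0.0110 with 1 FPKM added and 0.0782 with a GC trend removed (-0.31 to 0.24 without single libraries). In SUM159PT against SUM149PT CSCs the 3 higher became 5 under upper quartile scaling, with TEAD3 at 0.36 and AMOTL2 at 0.43 (AMOTL2 -0.0298 to 0.0173 without single libraries), CYR61 was -0.00148 under TPM and ANKRD1 was 0.20 under quantile normalization. Against HCC1937 CSCs the 3 higher became 0 under TPM, 0 with a GC trend removed and 1 under the stricter limits. There TEAD2 was -0.66 under TPM and -0.77 with a GC trend removed, TEAD4 was -0.0525 and -0.23, TEAD3 was -0.0784 with a GC trend removed, ANKRD1 was 0.46 under quantile normalization and AMOTL2 was 0.0582 under upper quartile scaling. Over all genes, higher and lower calls were 5345 and 6648 in SUM149PT (6643 and 5466 under quantile normalization), 1607 and 2378 in HCC1937 (2057 and 2187 under upper quartile scaling, 2388 and 2117 under quantile normalization, 2239 and 1755 under TPM), 4638 and 8733 for SUM159PT against SUM149PT CSCs (6747 and 6588 under quantile normalization, 2336 and 11204 under TPM) and 4515 and 9369 against HCC1937 CSCs (5988 and 7971 under upper quartile scaling, 6840 and 6808 under quantile normalization, 2414 and 11687 under TPM). The median of all genes moved from -0.11 to 0.10 under quantile normalization in SUM149PT, from -0.03 to 0.09 under TPM in HCC1937, from 0.22 to 0.04 under upper quartile scaling between CSCs, from 0.09 to -0.06 between non-CSCs, from -0.60 to 0.06 under quantile normalization and -1.63 under TPM in SUM159PT against SUM149PT CSCs, and from -0.85 to 0.02 and -1.83 against HCC1937 CSCs. In SUM149PT, same-numbered CSC and non-CSC libraries correlated in their deviations from group means at 0.143, 0.0223 and 0.130. Pairs of different number there lay between -0.199 and 0.0651. The same-numbered values of HCC1937 were -0.130, -0.0510 and -0.0280, beside a lowest of -0.0852 and a highest of 0.127 for different numbers. Same-numbered values were thus positive in one line and negative in the other, so whether such fractions came from the same sort cannot be decided from them. With the replicate number as a replicate block, calls were 5094 and 6398 in SUM149PT and 1161 and 1905 in HCC1937, TEAD4 in HCC1937 was 0.36 (adjusted p = 0.0843), and the difference between lines for TEAD2 was -0.28 (adjusted p = 0.0269). The block changed no other call among the 10 genes. Depth is unknown, which limits ANKRD1 most, as its levels were below 1 FPKM.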
